A study of Mus musculus with 6 samples.

Results

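Trem2, Gpnmb, Spp1, Apoe, Lpl, Fabp4, Fabp5, Cd36, Msr1 and Marco are genes by which lipid-associated and scavenger macrophages are usually recognised. They were picked by symbol, with no threshold on their values, and make up 10 of the 23946 genes in the deposited expression table. All 10 reached 1 fragment per kilobase per 1000000 aligned reads (FPKM) in at least 1 of the 6 libraries, as did 13064 genes of the table.

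Lipid-associated macrophages are found in fat and in tumours, where they take up lipoproteins, dying cells and free fatty acids. TREM2 is a surface receptor for lipids and lipoproteins that signals through the adaptor TYROBP. CD36, MSR1 and MARCO are scavenger receptors for modified lipoproteins, cell debris and microbes. Lipoprotein lipase, encoded by Lpl, frees fatty acids from triglyceride, FABP4 and FABP5 carry them inside the cell, and apolipoprotein E takes part in exporting cholesterol.

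Macrophages were sorted as CD45+CD11b+F4/80+ cells from omental (OM) and mesenteric (MY) fat of C57BL/6 mice, and their RNA was sequenced. The naive mice had received no tumour cells (OM 0h and MY 0h), and the others were taken 24 h (OM 24h and MY 24h) or 7 d (OM 7d and MY 7d) after ID8 cells, a mouse ovarian carcinoma line of the same strain background, had been injected into the peritoneal cavity. The study describes its mice as females of 6 to 8 weeks, and its design puts 3 mice in each of the 3 groups, so an omental library pools 3 omenta. How the mesenteric tissue was pooled is not given in the sources used here. The omentum is a fat depot whose milky spots hold many immune cells. No group of injected mice without tumour cells was analysed here, so the injection and the tumour cells cannot be told apart.

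Each condition had 1 library, so there is no spread between replicates, no test between conditions is given, and each difference describes those libraries. The FPKM of a library summed to between 526887 and 713863, and the steps between low values gave a rough depth of 29.1 to 50.7 times 1000000 fragments. Differences are on the log2(FPKM + 1) scale, where changes of low values come out too small, and genes at least 2-fold apart were counted. Values of a tissue follow the order naive, 24 h and 7 d. The sort markers Ptprc (105.8 to 208.3 FPKM), Itgam (27.8 to 150.9) and Emr1, which encodes F4/80 (20.5 to 135.0), were present in every library. So were genes of other cells. Summed B cell markers reached 3967 FPKM in OM 0h, NK cell markers 1480 in MY 0h and T cell markers 1036 in MY 7d. Neutrophil markers reached 19257 FPKM in OM 7d, and the part of these cells in the values below was not tested. In RNA from a sorted population, fewer cells of a type and less RNA per cell cannot be told apart.

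Trem2 had the widest range of the 10 genes, 408.1-fold between its highest and its lowest library. Its omental FPKM was 7.50 (naive), 190.6 (24 h) and 18.9 (7 d), against mesenteric values of 0.813, 4.49 and 0.467. Each omental library lay above each mesenteric one, as it did for 16.7% of the 13064 genes that reached 1 FPKM. OM 24h stood apart from the rest. The lowest values rest on few reads, roughly 22.3 fragments in MY 7d and 30.0 in MY 0h. Tyrobp, the signalling partner of TREM2, varied far less, from 745.0 FPKM in MY 7d to 2352 in OM 24h. The ratio of Trem2 to Tyrobp therefore ran from 0.000627 in MY 7d to 0.0810 in OM 24h.

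The scavenger receptors split by tissue. Msr1, which encodes scavenger receptor A, had omental FPKM of 27.5, 143.4 and 25.3 and mesenteric FPKM of 6.80, 10.6 and 7.02. Marco, a related class A receptor known from marginal zone, lymph node and peritoneal macrophages, had omental FPKM of only 10.5, 42.3 and 5.17. The mesenteric libraries held 202.4 FPKM of Marco before injection, 537.3 at 24 h and 208.1 at 7 d. The 2 genes thus ranked the tissues in opposite order at all 3 times, with no overlap between the tissues for either. Of the 13064 genes, 16.7% were higher in every omental library and 17.7% in every mesenteric library. Within a library, the FPKM of Marco was 0.204 to 0.380 times that of Msr1 in the omentum and 29.6 to 50.6 times in the mesentery.

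Cd36, the fatty acid and oxidised lipoprotein receptor, varied less, by 4.33-fold. Omental libraries had 35.1, 42.2 and 22.8 FPKM, mesenteric libraries 9.74, 17.1 and 17.8. The tissues did not overlap, but the nearest pair, OM 7d and MY 7d, was only 1.28-fold apart. Gpnmb, a membrane glycoprotein of lysosome-rich and lipid-laden macrophages, was low throughout, with omental FPKM of 0.263, 4.28 and 1.38 and mesenteric FPKM of 4.57, 3.38 and 5.38. OM 0h was its lowest library, with roughly 29.1 fragments, and the tissues overlapped because OM 24h lay among the mesenteric values.

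**Figure D1:**
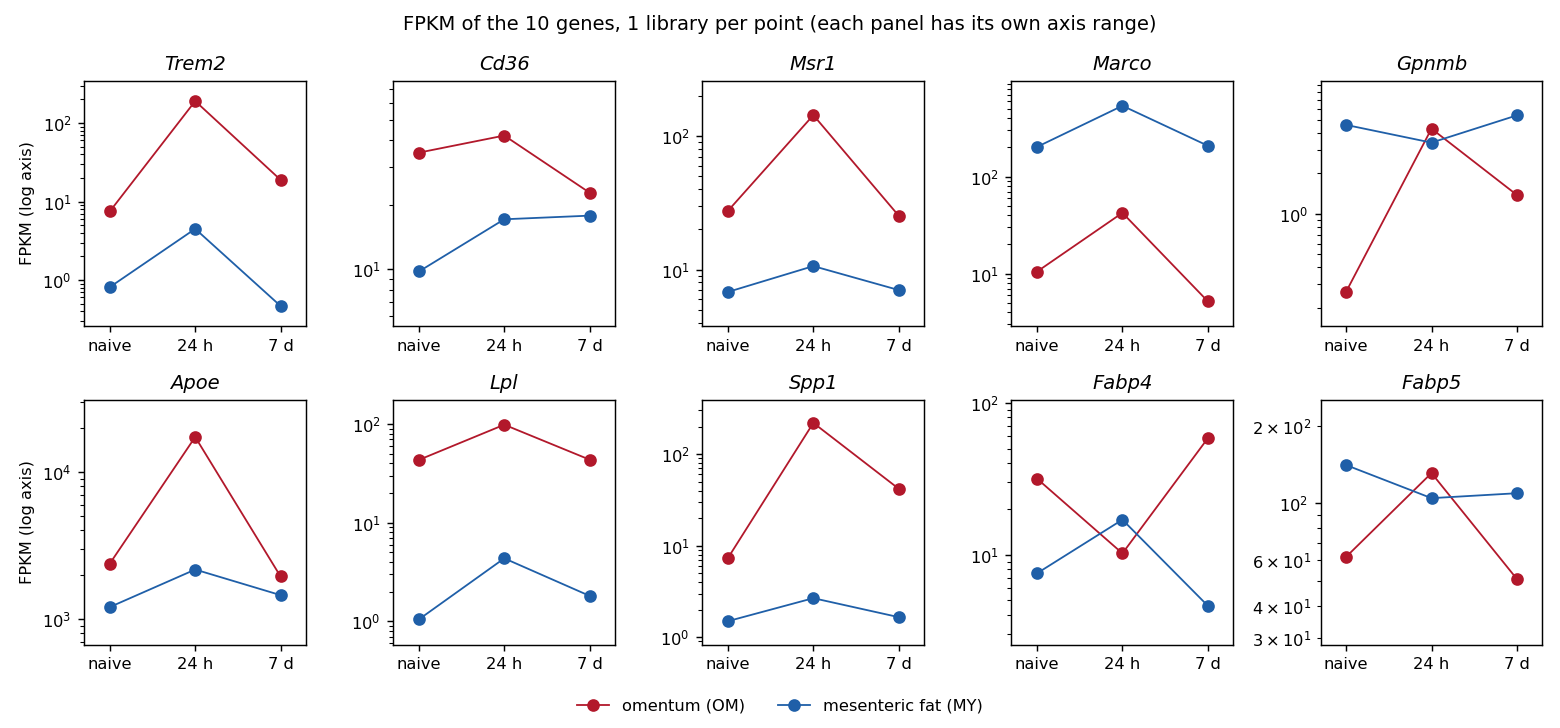
FPKM (log axis, with its own range in each panel) of the 10 genes in the naive, 24 h and 7 d libraries of the omentum (red) and the mesenteric fat (blue), 1 library per point, with lines joining the points of a tissue. Trem2, Msr1, Cd36, Lpl and Spp1 lie above the mesenteric values at every omental point, Marco lies below them, and Gpnmb, Apoe, Fabp4 and Fabp5 overlap. Of the 13064 genes that reached 1 FPKM, 16.7% lie above in the same way and 17.7% below.

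Apoe was the most abundant of the 10 genes in every library. Its omental FPKM was 2379.9, 17332 and 1943.6, beside mesenteric values of 1202, 2166 and 1449.7. In OM 24h it was the gene with rank 3 of the whole table and held 2.43% of the summed FPKM, whereas it ranked between 16 and 29 and held 0.228% to 0.383% in the others. The tissues overlapped for Apoe, since MY 24h lay above OM 7d.

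Lpl was the gene with the clearest separation of the tissues. The omentum had 43.3, 98.5 and 43.5 FPKM, the mesentery 1.05, 4.35 and 1.81. The lowest omental library was 9.97-fold above the highest mesenteric one. Its adipocyte and muscle source is well known, and the adipocyte list of 8 genes summed to 22.6 FPKM in OM 0h and to between 2.08 and 6.50 elsewhere. Adipoq, the defining adipocyte hormone, was at 1.81 FPKM in OM 0h and at 0.577 or less in the other libraries, with 0.168 in OM 24h, and the part of adipocytes in the Lpl values was not tested.

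Spp1 encodes osteopontin, a secreted ligand of CD44 and of integrins. Its FPKM was 7.35, 219.6 and 41.9 in the omentum but 1.5, 2.67 and 1.66 in the mesentery. The tissues did not overlap, and the 3 omental libraries were far from each other while the mesenteric ones were close. Epithelial and mesothelial cells can also make osteopontin, and the mesothelial and epithelial list of 10 genes summed to 114.4, 1023.6 and 1037.2 FPKM in the omental libraries, against 8.33 to 10.6 in the mesenteric ones. The list includes Krt8, at 19.9, 129.8 and 111.0 FPKM in the omentum, and Krt18, at 9.60, 145.1 and 116.5. The study stained the proteins of these 2 genes to find ID8 cells in omental sections. The part of epithelial, mesothelial or ID8 cells in the Spp1 values was not tested.

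The 2 fatty acid chaperones ran against each other. Fabp4, the form of adipocytes, capillary endothelium and macrophages, had omental FPKM of 31.6, 10.2 and 58.3 and mesenteric FPKM of 7.55, 17.0 and 4.62. Fabp5, the epidermal form that macrophages also make, had omental FPKM of 61.96, 131.3 and 50.8 and mesenteric FPKM of 141.0, 104.8 and 109.6. The 2 had opposite orders over the times in the omentum, and in the mesentery Fabp4 was highest and Fabp5 lowest at 24 h. The FPKM ratio of Fabp5 to Fabp4 was 1.96, 12.9 and 0.871 for the omentum and 18.7, 6.17 and 23.7 for the mesentery.

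Limits touch both chaperones. Of the 913 stretches of 75 bases along the Fabp5 transcript, 29.7% also occur at 4 other places of the genome, the processed pseudogene Gm6166 among them, so its level is uncertain. Lpl shares 4.28% of its stretches with a sequence repeated at many places, and the other 8 genes share none. For Fabp4, the endothelial list, which includes Pecam1, summed to 43.6, 9.53 and 35.8 FPKM across the omental times, and the adipocyte list to 22.6, 4.83 and 6.50. Both lists were lowest within the omentum in the library where Fabp4 was lowest. The fibroblast list of 6 genes summed to 344.6, 221.5 and 1190 FPKM over the omental times, in the same order as Fabp4. In the mesentery the fibroblast list summed to between 2.08 and 3.10 FPKM. Most of the endothelial sum was Pecam1, at 37.8, 8.85 and 23.9 FPKM, and each other gene of that list was at 4.53 FPKM or less in the omentum. Gpihbp1, a gene of capillary endothelium, was at 0.634 FPKM before injection, listed at 0 in OM 24h and at 2.2 FPKM by 7 d, in the same order as Fabp4, but it stood at 0.105 or less in the mesentery. The part of these cells in the Fabp4 values was not tested.

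**Figure D2:**
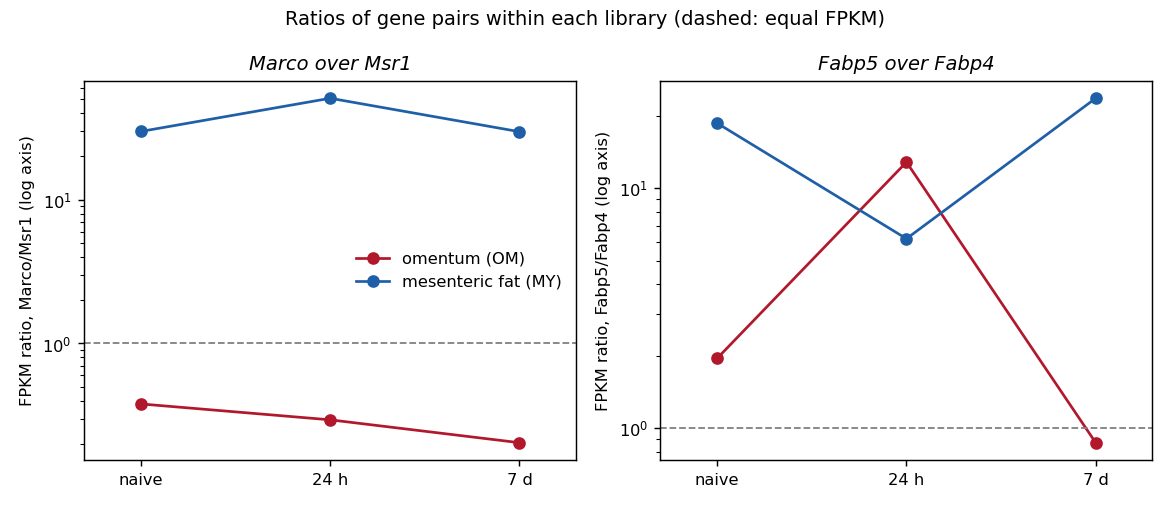
FPKM ratio (log axis) of Marco to Msr1 (left) and of Fabp5 to Fabp4 (right) within each library of the omentum (red) and the mesenteric fat (blue), 1 library per point, with a dashed line at equal FPKM. The Marco ratio stays at or below 0.380 in the omentum and at or above 29.6 in the mesentery, while the Fabp5 ratio crosses between the tissues at 24 h.

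The naive libraries ask how macrophages of the 2 fat depots differ before tumour cells arrive. Of the 10 genes, 6 in OM 0h were at least 2-fold above MY 0h, namely Lpl, Trem2, Fabp4, Msr1, Cd36 and Spp1, against 8.18% of all expressed genes. The differences on the log2 scale ran from 1.74 for Spp1 to 4.44 for Lpl. Another 3 genes were at least 2-fold lower, Marco by -4.15, Gpnmb by -2.14 and Fabp5 by -1.17, against 8.05% of expressed genes. Apoe was 0.98 higher on the log2 scale, just under 2-fold. The median of the 10 was 1.74, and that of all expressed genes 0.01.

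At 24 h the log2 difference between the tissues was larger than in the naive libraries for Trem2, Msr1, Apoe and Spp1 and smaller in size for the other 6 genes. OM 24h was at least 2-fold above MY 24h for 6 of the 10 genes, with a background of 13.9%, and below it for Marco (-3.64), with a background of 10.2%. Spp1 differed by 5.91 on the log2 scale, Trem2 by 5.13, Lpl by 4.22, Msr1 by 3.64, Apoe by 3.00 and Cd36 by 1.25. Gpnmb, Fabp4 and Fabp5 were within 2-fold, at 0.27, -0.68 and 0.32. The median was 2.13 over the 10 genes and 0.00 over all expressed genes. With each library rescaled to a sum of 1000000, 5 genes were higher and 2 lower, beside 11.8% and 16.9% of expressed genes.

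At 7 d, 5 of the 10 genes in OM 7d were at least 2-fold above MY 7d, with a background of 14.1%. They were Spp1 (4.01 on the log2 scale), Lpl (3.99), Trem2 (3.76), Fabp4 (3.40) and Msr1 (1.71). Marco (-5.08), Gpnmb (-1.42) and Fabp5 (-1.09) were lower, 3 genes with a background of 4.99%, and Apoe and Cd36 were within 2-fold at 0.42 and 0.34. Over all times, every omental library lay above every mesenteric one for Trem2, Cd36, Msr1, Lpl and Spp1, 5 of 10 genes, as it did for 16.7% of expressed genes. The reverse held for Marco alone, 1 of 10, and for 17.7% of expressed genes.

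**Figure D3:**
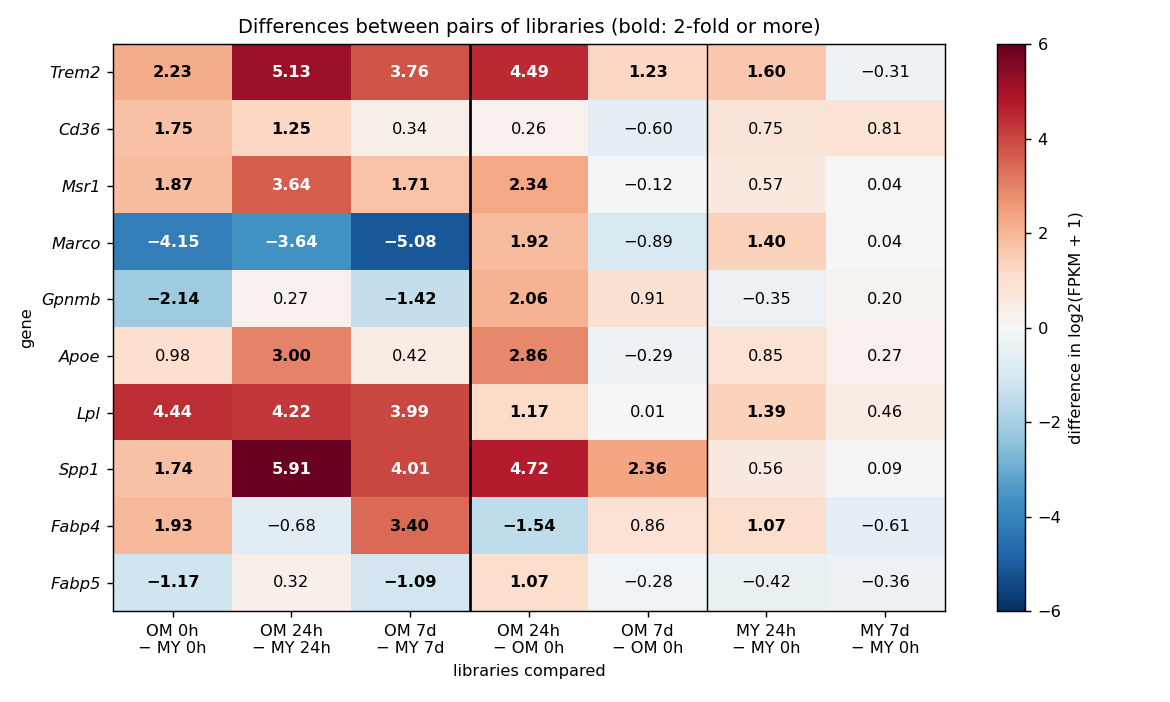
Difference in log2(FPKM + 1) between pairs of libraries (colour and number, red where the library named above is higher), with the 10 genes as rows, the 7 comparisons as columns and differences of 2-fold or more in bold. Marco is at -3.64 or below in the 3 tissue comparisons. The comparison of OM 24h with OM 0h holds the most differences of 2-fold or more within a tissue, 8 up and 1 down. Of all expressed genes, 11.9% were up and 6.45% down in it.

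The time comparisons ask what changes in each depot after the injection of ID8 cells. They share the naive library of their tissue, so each is given by its own values. In the omentum, 8 of the 10 genes in OM 24h were at least 2-fold above OM 0h, against 11.9% of expressed genes. Spp1 rose by 4.72 on the log2 scale, Trem2 by 4.49, Apoe by 2.86, Msr1 by 2.34, Gpnmb by 2.06, Marco by 1.92, Lpl by 1.17 and Fabp5 by 1.07. Fabp4 alone was at least 2-fold lower, by -1.54, with a background of 6.45%, and Cd36 differed by 0.26. The median of the 10 genes was 1.99, and that of all expressed genes 0.00. With each library rescaled to a sum of 1000000, 6 were higher and 1 lower, beside 10.7% and 10.5% of expressed genes. The 10 genes together took 0.420% of the summed FPKM in OM 0h and 2.55% in OM 24h, most of it Apoe, and without Apoe their sum went from 225.1 to 882.4 FPKM.

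General macrophage genes moved with them. The list of 8 macrophage markers (Emr1, Csf1r, Cd68, Fcgr1, Mertk, C1qa, C1qb and C1qc), none at 0 in any library, summed to 2120.1, 12837 and 1225.6 FPKM in omental libraries and to 1317, 3313 and 1543.2 in mesenteric libraries. B cell markers went the other way within the omentum, from 3967 FPKM in OM 0h to 904.4 in OM 24h, and NK cell markers from 217.9 to 6.06. When the mean log2 difference of the 8 macrophage markers was taken from each gene, the median of all expressed genes shifted to -2.36 for OM 24h against OM 0h. On that scale, where 0.582% of expressed genes were at least 2-fold higher and 92.9% lower, 2 of the 10 genes were at least 2-fold higher, Spp1 (2.36) and Trem2 (2.13), and 4 were lower, Fabp4 (-3.91), Cd36 (-2.10), Fabp5 (-1.29) and Lpl (-1.20). Apoe (0.50), Msr1 (-0.02), Gpnmb (-0.30) and Marco (-0.45) were within 2-fold of the macrophage markers.

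Ratios to a single macrophage gene show the same split in FPKM. Csf1r, the receptor for macrophage colony-stimulating factor, had omental FPKM of 131.9, 569.8 and 102.8. The ratio of Trem2 to Csf1r was 0.0569, 0.335 and 0.184 in these libraries, and that of Spp1 to Csf1r 0.0557, 0.385 and 0.407. Both ratios were above naive at both later times. The ratio of Msr1 to Csf1r was 0.209, 0.252 and 0.246, and the ratio of Apoe to Csf1r was 18.0, 30.4 and 18.9.

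**Figure D4:**
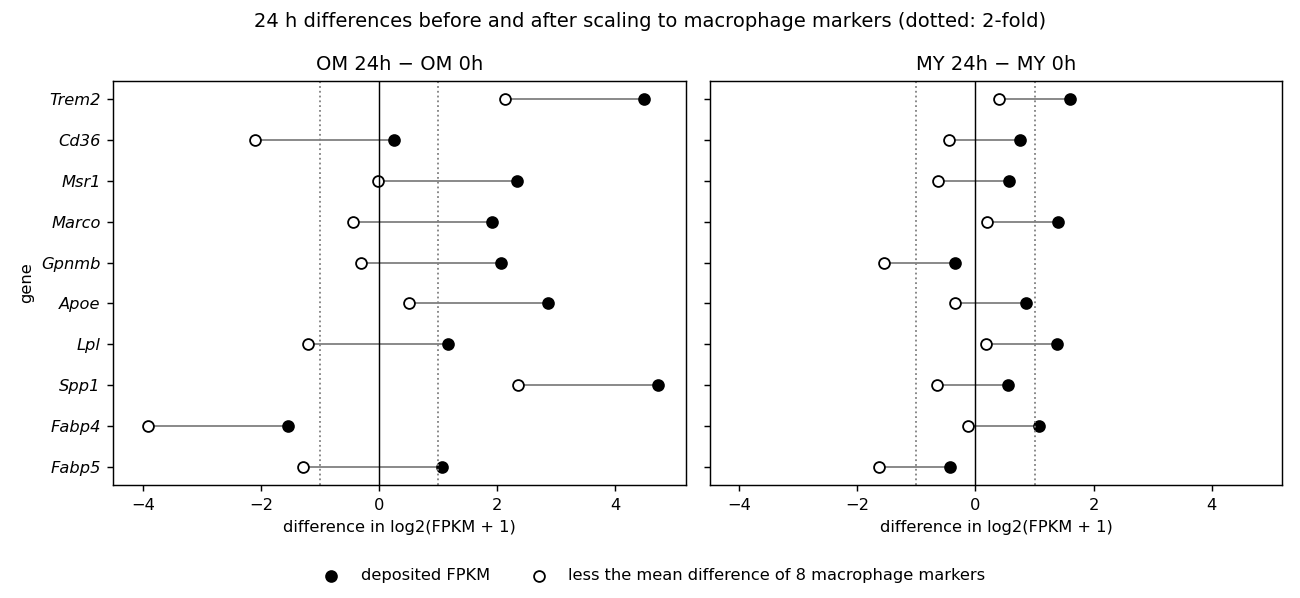
Difference in log2(FPKM + 1) between the 24 h and naive libraries of the omentum (left) and the mesentery (right) for the 10 genes, from the deposited FPKM (filled) and after the mean difference of 8 macrophage markers was subtracted (open), with dotted lines at 2-fold. In the omentum Spp1 and Trem2 stay above 2-fold, at 2.36 and 2.13, and in the mesentery no open point lies above 2-fold.

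The promoters of Trem2, Spp1 and Apoe, the 3 genes with the largest log2 rise in OM 24h, are shown because these genes moved together. They are the 250 bases before the RefSeq start site, from RefSeq's GRCm38.p6 table, which holds 6 of the 10 genes, and they were found unchanged in mm9, whose coordinates are given. The sequences run 5′ to 3′ on the strand of the gene, and capitals mark matches, on either strand, to 6 motifs of macrophage factors: PU.1 (GAGGAAGT), AP-1 (TGANTCA), the E-box of MITF and TFEB (TCANGTG), the nuclear receptor motif (AGGTCA), C/EBP (TTGCNNAA) and RUNX (TGTGGT).
Trem2, chr17:48485476-48485725, plus strand: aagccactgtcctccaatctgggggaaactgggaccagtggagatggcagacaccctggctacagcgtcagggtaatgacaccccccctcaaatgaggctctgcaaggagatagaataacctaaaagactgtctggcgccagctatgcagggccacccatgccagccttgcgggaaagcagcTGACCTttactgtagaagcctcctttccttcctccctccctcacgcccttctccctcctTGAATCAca
Spp1, chr5:104863880-104864129, plus strand: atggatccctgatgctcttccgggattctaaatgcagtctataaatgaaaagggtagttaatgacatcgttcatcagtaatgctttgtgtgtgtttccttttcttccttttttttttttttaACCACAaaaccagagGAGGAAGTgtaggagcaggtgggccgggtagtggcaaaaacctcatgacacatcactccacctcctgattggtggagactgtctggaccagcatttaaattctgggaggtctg
Apoe, chr7:20284538-20284787, minus strand: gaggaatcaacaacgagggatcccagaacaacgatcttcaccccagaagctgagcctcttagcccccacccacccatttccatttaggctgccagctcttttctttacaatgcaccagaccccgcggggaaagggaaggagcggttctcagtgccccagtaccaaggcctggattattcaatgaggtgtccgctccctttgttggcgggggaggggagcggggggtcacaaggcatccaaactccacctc
The Trem2 window holds an AP-1 match from -9 to -3 and a nuclear receptor match on the opposite strand from -68 to -63, counted from the start site, and these motifs occur in 6.75% and 14.0% of 32851 promoters of the same length. The Spp1 window holds a PU.1 match from -113 to -106 and a RUNX match on the opposite strand from -128 to -123, found in 2.44% and 14.0% of promoters. No match lies in the Apoe window, so the 3 windows have none of these motifs in common. E-box matches occur in 12.2% of promoters and C/EBP matches in 9.56%, and none was in these windows. The matches describe letters only.

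By 7 d most omental values were within 2-fold of naive. In OM 7d against OM 0h, 2 of the 10 genes were at least 2-fold higher, Spp1 (2.36 on the log2 scale) and Trem2 (1.23), against 11.0% of expressed genes, and 0 were at least 2-fold lower, against 1.96%. Fabp4 differed by 0.86, Gpnmb by 0.91, Marco by -0.89 and Cd36 by -0.60, all under 2-fold on this scale, although the FPKM of Gpnmb itself was 5.24 times and that of Marco 0.494 times the naive value. Lpl (0.01), Msr1 (-0.12), Fabp5 (-0.28) and Apoe (-0.29) were closest to naive. The median was -0.06 for the 10 genes and 0.00 for all expressed genes. The 10 dissociation and stress genes, Fos and Hspa1a among them, summed to 3446, 5373 and 5062 FPKM across the omental times, and to 457.3 to 485.8 in mesenteric libraries, and their part in the values of the 10 genes was not tested.

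The mesentery moved less. In MY 24h, 4 of the 10 genes were at least 2-fold above MY 0h, Trem2 (1.60), Marco (1.40), Lpl (1.39) and Fabp4 (1.07), against 2.8% of expressed genes. None was at least 2-fold lower, a change that 1.52% of expressed genes showed. Apoe, Cd36, Msr1 and Spp1 lay between 0.56 and 0.85 on the log2 scale, and Gpnmb and Fabp5 at -0.35 and -0.42. The macrophage markers moved with these values too, and on their scale 0 of the 10 were at least 2-fold higher and Gpnmb (-1.55) and Fabp5 (-1.63) were lower, beside 0.306% and 71.2% of expressed genes. In MY 7d, 0 of the 10 genes were 2-fold from MY 0h in either direction, where 0.498% of expressed genes were higher and 2.29% lower. The largest difference at 7 d was that of Cd36, at 0.81.

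Around these genes, 9 lists of lipid and scavenger genes that exclude the 10 were described in the same way. The list of lipid-associated macrophage and TREM2 signalling genes had 14 of its 28 members at least 2-fold above OM 0h in OM 24h and 3 below, with a median of 0.91 on the log2 scale, beside 11.9%, 6.45% and 0.00 for all expressed genes. Cd63, a lysosomal tetraspanin, rose from 64 to 489.8 FPKM, Ctsl, a lysosomal protease, from 20.3 to 146.2, and Axl, a receptor for dying cells, from 37.4 to 201.0. Syk, the kinase downstream of TREM2 and TYROBP, was lower, at 180.5 and 59.4 FPKM, as were Bhlhe41 and Cst7. Summed B cell markers were also lower, at 3967 and 904.4 FPKM, and the part of B cells in the Syk values was not tested. In MY 24h against MY 0h the same list had 2 members higher, Axl and Plin2, and 1 lower, Cst7. The shares of all expressed genes there were 2.8% and 1.52%. Relative to the macrophage markers, 0 were higher and 14 lower in MY 24h, beside 0.306% and 71.2%. In MY 7d the list had none in either direction, beside 0.498% and 2.29% of expressed genes. On the scale of the macrophage markers 0 of the 28 were higher and 18 lower in OM 24h, with a median of -1.45, beside 0.582% and 92.9% of expressed genes and their median of -2.36.

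Other scavenger and dying-cell receptors followed. In OM 24h, 11 of 19 were at least 2-fold higher and 1 was lower, against 11.9% and 6.45% of expressed genes, with a median of 1.24. Cd68 and Mertk are both in this list and among the macrophage markers. Stab1 rose from 4.73 to 38.1 FPKM and Cxcl16, a receptor for oxidised lipoprotein, from 30.6 to 198.6. On the macrophage marker scale 0 were higher and 11 lower, with a median of -1.12. All expressed genes had 0.582% higher, 92.9% lower and a median of -2.36 on it. Cd5l, a secreted scavenger protein of tissue macrophages, had the tissue order of Marco, at 5.97, 16.5 and 1.40 FPKM in the omentum and 29.8, 103.3 and 47.7 in the mesentery. In MY 24h, 7 of the 19 were higher, Cd5l, Scarf2 and Mrc1 the most, against 2.8% of expressed genes. On the macrophage marker scale 0 were higher and 4 lower in MY 24h, beside 0.306% and 71.2% of expressed genes. The median there was -0.50, and that of all expressed genes -1.20.

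Of 18 expressed regulators and cholesterol carriers, 7 passed 2-fold upwards in OM 24h and 0 downwards, against 11.9% and 6.45% of expressed genes. Their median was 0.91, and -1.46 on the macrophage marker scale, where all expressed genes had medians of 0.00 and -2.36. Apoc2, a cofactor of lipoprotein lipase whose gene lies in the cluster of Apoe on chromosome 7, rose from 9.78 to 177.7 FPKM. Nr1h3, which encodes the oxysterol receptor LXR alpha, rose from 10.5 to 58.3 FPKM beside mesenteric values of 111.8, 131.6 and 70.4. Its partner Rxra was also higher in the mesentery, at 34.4 to 72.5 FPKM against 5.82 to 12 in the omentum, whereas Pltp, a phospholipid transfer protein, was at 150.1 to 1118.6 in the omentum and 28.9 to 75.2 in the mesentery.

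Lipases and transporters gave smaller groups. Of 8 expressed lipoprotein receptors and lipase partners, 2 were higher and 1 lower in OM 24h, against 11.9% and 6.45% of expressed genes. The median of 0.14 became -0.02 when each library was rescaled to a sum of 1000000, beside 0.00 and -0.17 for all expressed genes. On the macrophage marker scale 0 were higher and 7 lower, with a median of -2.23. All expressed genes had 0.582% higher, 92.9% lower and a median of -2.36 there. Lsr rose from 16.9 to 138.0 FPKM and stayed at 137.3 in OM 7d, and Angptl4, an inhibitor of lipoprotein lipase, had omental FPKM of 2.39, 7.67 and 20.9. Lsr is also an epithelial gene and stood with the mesothelial and epithelial list in these libraries, and the part of such cells was not tested. Of 9 expressed fatty acid binding and transport genes, 3 were higher and 1 lower in OM 24h, with a median of 0.84. In MY 24h 4 were higher, against 2.8% of expressed genes. Relative to the macrophage markers, 0 were higher and 4 lower in MY 24h, beside 0.306% and 71.2% of expressed genes. On the macrophage marker scale 0 of the 9 were higher and 9 lower in OM 24h, with a median of -1.53 beside the -2.36 of all expressed genes. Fabp1, the liver and intestinal form, had mesenteric FPKM of 28.1, 42.8 and 19.8, was listed at 0 in OM 0h, and had only 0.474 and 0.156 FPKM in the later omental libraries.

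Genes that store, burn or make lipid were counted against the same background of 11.9% higher and 6.45% lower. In OM 24h against OM 0h, 0 of 17 genes of the lipid droplet list were at least 2-fold higher and 1 was lower. Plin2, also a lipid droplet gene, was counted in the lipid-associated macrophage list instead. It rose from 58.4 FPKM in OM 0h to 197.9 in OM 24h. Of 18 fatty acid oxidation genes 3 were higher, Acaa2, Echs1 and Cpt1a, and of 25 cholesterol and fatty acid synthesis genes 3 were lower, Scd1 (80.1 to 16.0 FPKM) and Fasn among them. Under the rescaling to a sum of 1000000, with a background of 10.7% higher and 10.5% lower, the oxidation genes past 2-fold became 0 and the synthesis genes 4. Among 8 receptors of osteopontin, 4 were higher and 2 lower in OM 24h, and Itgb5 rose from 9.07 to 191.5 FPKM while Cd44 was at 92.7 and 81.8. On the macrophage marker scale, with its background of 0.582% higher and 92.9% lower, these 4 lists had 17, 18, 25 and 5 members lower. The osteopontin receptors had 1 higher. In MY 24h these 4 lists had 2, 1, 0 and 0 members at least 2-fold higher and none lower, beside 2.8% and 1.52% of expressed genes. Relative to the macrophage markers, they had 0 higher and 11, 8, 23 and 5 lower in MY 24h, beside 0.306% and 71.2%.

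**Figure D5:**
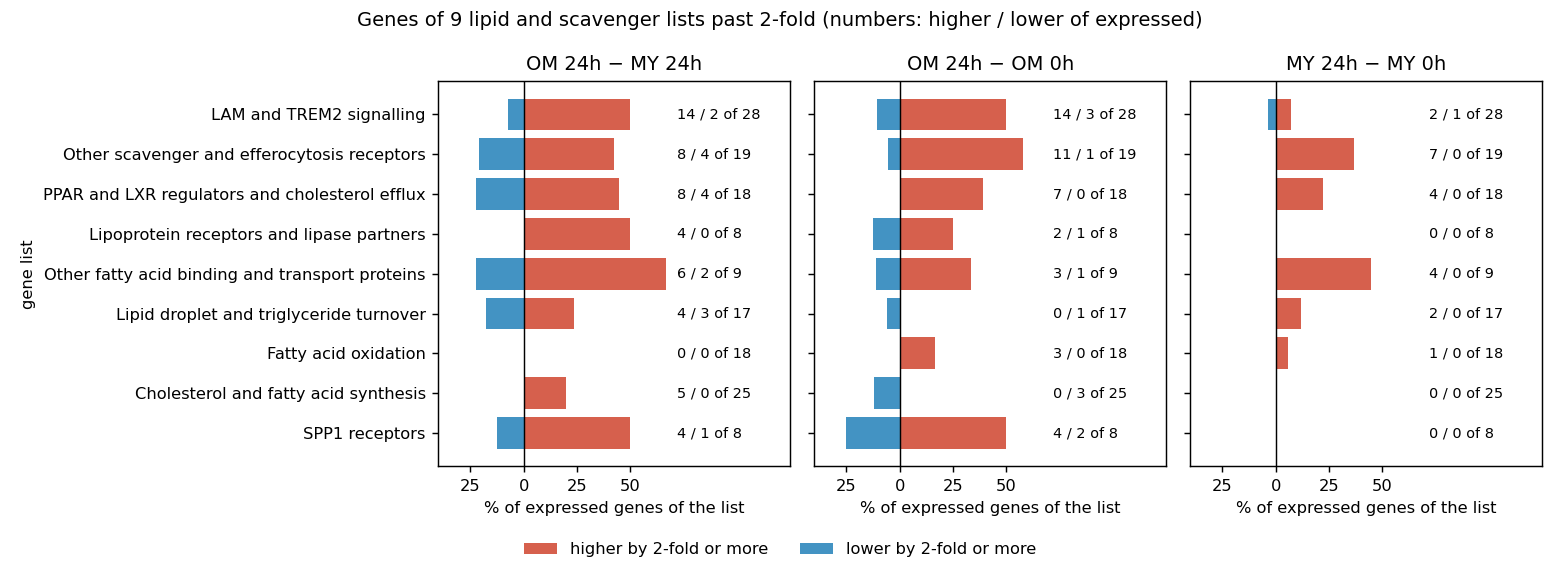
Share of the expressed genes of 9 lists (rows) at least 2-fold higher (red, to the right) or lower (blue, to the left) in 3 comparisons, with the counts printed as higher / lower of expressed. In OM 24h against OM 0h the lipid-associated macrophage list has 14 higher and 3 lower of 28 and the scavenger list 11 and 1 of 19, against 2 and 1 of 28 and 7 and 0 of 19 in the mesentery. All expressed genes had 11.9% higher and 6.45% lower in the omentum, and 2.8% and 1.52% in the mesentery.

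Likeness of pattern was measured by Pearson's r of log2(FPKM + 1) over the 6 libraries, which share tissues and times, so high values are common and describe these libraries only. Among the 10 genes, Trem2, Msr1 and Spp1 were the most alike, at r of 0.976 for Trem2 and Msr1, 0.972 for Trem2 and Spp1 and 0.949 for Msr1 and Spp1. Fabp4 and Fabp5 were the least alike, at -0.890. Among genes of at least 10 FPKM in at least 1 library, the gene most like Trem2 was Myof (0.998), that most like Spp1 was Perp (0.999), and that most like Msr1 was Lyz2 (0.998), the macrophage and neutrophil lysozyme, which reached 24780 FPKM in OM 24h. Lpl was most like Cdc42ep4 (0.997), then Ccr1 (0.996). Marco was most like Psmd10 (0.996), Apoe like Dctpp1 (0.993), Cd36 like Plbd1 (0.997), Gpnmb like Xylt2 (0.993) and Fabp5 like Ict1 (0.992). Fabp4 had the lowest best match, C2 at 0.946.

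In mm9 with the GENCODE M1 annotation, Fabp5 (chr3:10012548-10016607, plus strand) and Fabp4 (chr3:10204347-10208576, minus strand) lie 187739 bases apart with 3 coding genes between them, Pmp2 and Fabp9 among these. The 2 neighbours with opposite patterns therefore sit in 1 cluster of the family, and Fabp9 was listed at 0 in all 6 libraries. Apoe lies at chr7:20281458-20284515 beside Apoc1, Apoc4 and Apoc2, Trem2 at chr17:48485726-48493472 with 5 exons and Spp1 at chr5:104864137-104870069 with 6. Lpl lies at chr8:71404390-71431347 and Msr1 at chr8:40667054-40728032, Marco at chr1:122371115-122401661, Cd36 at chr5:17287508-17394777 and Gpnmb at chr6:48986517-49020928. In that annotation no exon of the longest coding transcript of any of the 10 genes overlaps an exon of another gene.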

How the data were processed

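RNA of sorted macrophages was sequenced in 6 libraries, 1 per condition, and groups were taken from the sample titles. Per the labels and the study's methods, the authors checked reads with FastQC 0.11.4, used STAR 2.4.2a to align them to mm9 given UCSC splice junctions, and deposited FPKM per gene symbol from Cufflinks. FPKM are not counts, so no count test was run.

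Differences of log2(FPKM + 1) were computed in Python 3.11.15 with pandas 2.3.3 and numpy 2.4.6, and called at 2-fold, the size the study's methods use, among genes that reached 1 FPKM in any library. Figures were drawn with matplotlib 3.10.9. The FPKM of a library was turned into rough fragments by the steps between low values and the longest coding transcript. The genome used was mm9 with GENCODE M1, which is not the authors' annotation, and 75-base stretches were matched with numba 0.67.0.

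The 10 genes, the lists and the alternatives were chosen with earlier results of these data known, and the motifs after the values were seen. Named beside the 10 are the 3 genes most like each, the up to 3 largest differences each way and the 2 highest genes of each list, and marker genes; other genes were named after their values were seen, for their role. Some genes that this rule names are not reported here.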

Additional observations from a re-analysis of the deposited data

Results flagged for a closer look

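3 pairs of differences had opposite signs in the 2 tissues at the same time, each at least 1.5-fold. The difference between tissues was not tested, since each condition has 1 library. At 24 h, Fabp4 differed from naive by -1.54 (omentum) and 1.07 (mesentery) on the log2(FPKM + 1) scale. At 7 d, Fabp4 differed by 0.86 (omentum) and -0.61 (mesentery), so its sign was opposite in both tissues and turned between the times. Cd36 at 7 d differed by -0.60 (omentum) and 0.81 (mesentery). The 2 time points of a tissue share its naive library.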

How the results depend on the processing

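No paired analysis was possible because with 1 library per condition the samples carry no numbers to pair. Of 350 single differences recomputed under 5 alternatives, 295 stayed within 1.5-fold, 48 moved further and 7 that had passed 2-fold changed sign, all relative to the 8 macrophage markers. These 7 were Cd36 in OM 24h against MY 24h (-0.45), Msr1 (-0.024), Marco (-0.45), Gpnmb (-0.30), Lpl (-1.20) and Fabp5 (-1.29) in OM 24h against OM 0h, and Fabp4 in MY 24h against MY 0h (-0.13). Scaling by the median ratio moved 0 of 70 and a sum of 1000000 moved 1. For OM 7d against OM 0h the count of genes past 2-fold was 2, all higher, beside 11.0% of expressed genes. It became 1 higher with a pseudocount of 5, beside 4.45%. It was 4 higher at a sum of 1000000 and also relative to the macrophage markers, beside 14.2% and 18.0%. With a pseudocount of 0.1 it was 4 (3 higher and 1 lower, beside 15.8% and 3.49%), and at 1.5-fold 6 (4 higher and 2 lower). For MY 24h against MY 0h, 4 higher (beside 2.8%) became 1 higher with a pseudocount of 5 (beside 1.06%) and 2 higher among genes of at least 10 FPKM. Relative to the markers, 0 were higher and 2 lower, beside 0.306% and 71.2%. For MY 7d against MY 0h, 0 became 2 at 1.5-fold, 1 higher and 1 lower. The share of expressed genes was not computed at 1.5-fold or among genes of at least 10 FPKM. Relative to the markers, OM 24h against MY 24h had 5 genes higher and 4 lower, beside 2.79% and 80.6% of expressed genes. Without the 24 h time point, an alternative chosen after seeing the data, all 10 genes separated the tissues, 7 higher in the omentum and 3 in the mesentery, beside 25.1% and 26% of expressed genes, against 6 with all times. Values under 1 FPKM rest on few reads, such as Trem2 in MY 0h and MY 7d and Gpnmb in OM 0h.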
